A study of Danio rerio with 6 samples.

Results

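The gene set described here holds 6 genes of the red cell membrane skeleton and of its anion exchange: *slc4a1a*, *sptb*, *epb41b*, *ank1a*, *rhag* and *cahz*. They were found by their symbols in a table of 32057 zebrafish genes. The symbol *ank1a* stands on 2 rows of that table, so the 6 symbols cover 7 rows. RNA was sequenced from EGFP+ cells that had been sorted out of Tg(*fli1a*:EGFP) embryos, in which the *fli1a* promoter drives EGFP. The study describes this line as marking endothelial cells and the sorted cells as including hemogenic endothelium. Transcripts of erythroid, myeloid and neural crest markers were also present in the control MO samples. Embryos had been injected at the one-cell stage with a splice-modifying morpholino against *nlrc3* (*nlrc3* MO, 3 samples) or with a standard morpholino (control MO, 3 samples), and the labels place both groups at 28 hpf. All 6 samples came from the same transgenic background, and the *nlrc3* MO was injected at a higher concentration than the control MO. The comparison asks how the transcriptome of *fli1a*:EGFP+ cells differs between *nlrc3* morphants and control embryos.

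The shape and strength of a red cell come from a net of spectrin under its plasma membrane. Ankyrin ties this net to Band 3, the chloride-bicarbonate exchanger encoded by *SLC4A1* in humans, and protein 4.1 fastens the spectrin tails to short actin filaments. Carbonic anhydrase in the cytoplasm makes the bicarbonate that Band 3 exchanges, and the Rh-associated glycoprotein sits in the same membrane complex. In zebrafish, mutants of *slc4a1a*, *sptb* and *epb41b* are known for anemia.

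Values are FPKM, which count sequenced fragments against transcript length and against the library's mapped total. Because FPKM is scaled to transcript length, levels can be compared between genes. The sum of FPKM over all genes was 678620 to 687386 in *nlrc3* MO samples and 524846 to 525567 in control MO samples. The 14 genes named as globins took 34.5% to 34.8% of this sum in *nlrc3* MO samples and 15.6% to 15.7% in control MO samples. The targeted gene *nlrc3* was at 0.26, 0.15 and 0.17 FPKM in *nlrc3* MO samples, against 0.82, 0.70 and 1.09 FPKM in control MO samples. Transcripts of *nlrc3* were thus lower in all 3 *nlrc3* MO samples (log2 fold change -1.72 ± 0.30 (SE), Benjamini-Hochberg adjusted p = 0.00175 in limma), although a splice-modifying morpholino need not lower the transcript level. Only control MO samples reached the 0.5 FPKM needed for testing *nlrc3*, so it could come out only as lower. Endothelial genes were present in both groups, but not at equal levels. *kdrl* was at 49.1 FPKM in *nlrc3* MO and 64.2 FPKM in control MO on average. The most abundant endothelial markers differed more, with *fli1a* at 90.6 and 204.6 FPKM and *egfl7* at 48.4 and 126.7 FPKM in the same order. Of 10 endothelial markers, 7 were lower and 2 higher in *nlrc3* MO at an adjusted p under 0.05 in limma.

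All 6 genes were higher in *nlrc3* MO than in control MO samples, by 2.06-fold to 2.66-fold in the means, and for none of them did the groups overlap. Their log2 fold changes lay between 1.04 and 1.41, the median being 1.29, whereas the median over the 15155 genes tested was -0.22. All 6 passed the test at an adjusted p under 0.05, which 20.2% of tested genes did in the higher direction. A further 42.9% of tested genes passed in the lower direction. All 6 also changed by more than 2-fold, as did 4.89% of tested genes upwards and 20.4% of tested genes downwards. Groups without overlap and higher in *nlrc3* MO were found for 22.8% of tested genes. In a bulk sample, more red cells in the sort and more of these transcripts per red cell cannot be told apart. A legend of the study calls the samples of each group biological replicates. Neither it nor the labels say whether they came from separate clutches, so p-values measure the spread between these samples.

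**Figure D1:**
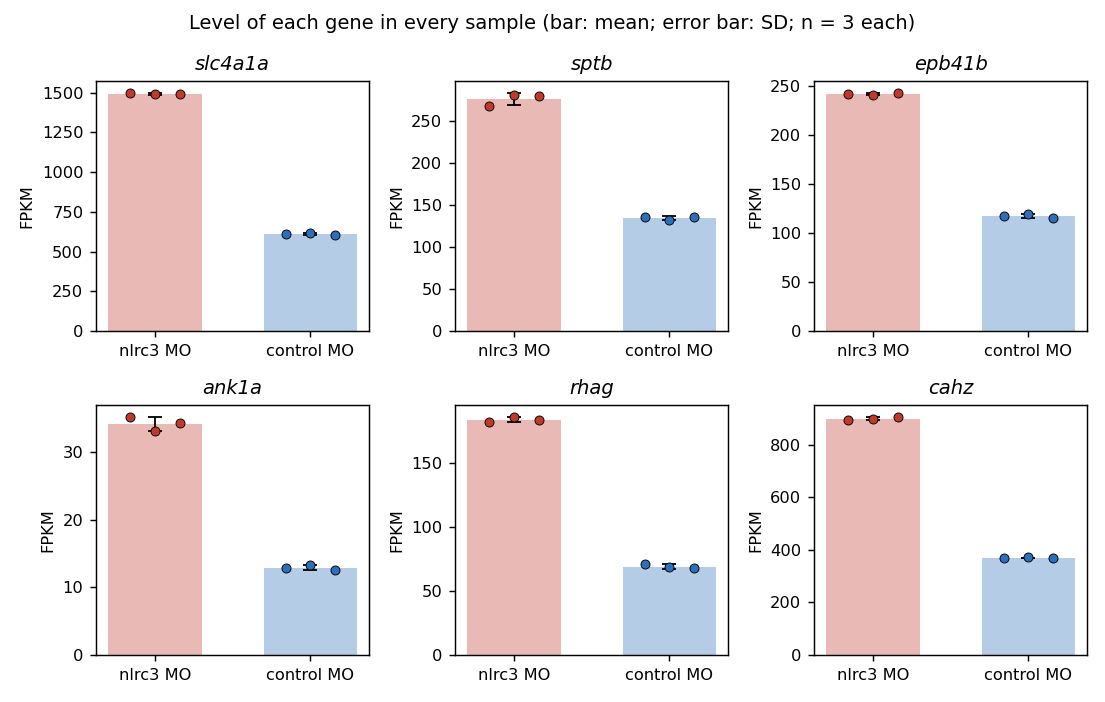
FPKM (vertical axes, each starting at 0) of the 6 genes in the 3 *nlrc3* MO samples (red points) and the 3 control MO samples (blue points); bars are group means and error bars are SD. In each panel the 3 *nlrc3* MO samples lie above the 3 control MO samples, and the spread within a group is small beside the gap.

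*slc4a1a* (ENSDARG00000012881) encodes the anion exchanger Band 3, the most abundant protein of the red cell membrane. It was at 1498, 1490 and 1491 FPKM in *nlrc3* MO samples, against 611.3, 616.1 and 603.2 FPKM in control MO samples. The lowest *nlrc3* MO sample therefore stood far above the highest control MO sample. The means were 1493 ± 4.74 FPKM in *nlrc3* MO and 610.2 ± 6.51 FPKM in control MO (SD, n = 3 each), a 2.45-fold difference. On the log2(FPKM + 0.1) scale the fold change was 1.29 with a 95% interval of 1.25 to 1.33 (limma, adjusted p = 2.4e-09). *slc4a1a* was the 64th most abundant gene of the table in *nlrc3* MO samples and the 124th in control MO samples. Its log2 fold change was above that of 97.5% of tested genes.

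*cahz* (ENSDARG00000011166) encodes a cytosolic carbonic anhydrase of zebrafish red cells, which interconverts carbon dioxide and bicarbonate. Its levels were 894.7, 898.8 and 907.6 FPKM in *nlrc3* MO samples, against 368.6, 371.1 and 368.7 FPKM in control MO samples. The samples of each group were close together, with coefficients of variation of 0.735% in *nlrc3* MO and 0.385% in control MO. The means differed 2.44-fold (900.4 ± 6.62 FPKM in *nlrc3* MO and 369.5 ± 1.42 FPKM in control MO, SD, n = 3 each). The log2 fold change was 1.28 with a 95% interval of 1.24 to 1.32 (limma, adjusted p = 2.87e-09). The exchanger and the enzyme that makes its substrate thus changed by nearly the same factor.

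*sptb* (ENSDARG00000030490) encodes beta spectrin, a chain of the net itself. It was at 268.0, 280.6 and 280.0 FPKM in *nlrc3* MO samples, against 135.4, 131.8 and 135.8 FPKM in control MO samples. Even the lowest *nlrc3* MO value was nearly double the highest control MO value. The log2 fold change was 1.04 (limma, adjusted p = 7.6e-08). Its 95% interval of 0.97 to 1.1 includes 1, so a fold change of exactly 2 is within the error.

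*epb41b* (ENSDARG00000029019) encodes protein 4.1, which binds the ends of spectrin to actin. Its levels were 242.0, 240.6 and 242.9 FPKM in *nlrc3* MO samples, against 117.1, 119.8 and 115.9 FPKM in control MO samples. No sample of either group came near the other group. The log2 fold change of 1.04 (95% interval 0.98 to 1.09, limma, adjusted p = 3.42e-08) was the same as that of *sptb* to 2 decimals, and its interval also includes 1.

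*ank1a* (ENSDARG00000059093) encodes ankyrin 1, the adaptor between Band 3 and beta spectrin. It was the least abundant of the 6 genes, at 35.2, 33.1 and 34.4 FPKM in *nlrc3* MO samples, against 12.8, 13.3 and 12.6 FPKM in control MO samples. The groups were far apart here too, although the relative spread was the widest of the 6 genes, with coefficients of variation of 3.0% in *nlrc3* MO and 2.63% in control MO. The log2 fold change was 1.40 with a 95% interval of 1.29 to 1.51 (limma, adjusted p = 2.27e-07). The gene ranked 1544th in *nlrc3* MO samples and 4335th in control MO samples. The other row named *ank1a* (ENSDARG00000092143) held 0.42, 0 and 0.14 FPKM in *nlrc3* MO samples, against 0.21, 0 and 0.26 FPKM in control MO samples, and was below the limit for testing.

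*rhag* (ENSDARG00000019253) encodes the Rh-associated glycoprotein, a channel for ammonia and probably carbon dioxide that assembles with Band 3. Its levels were 182.6, 186.6 and 183.7 FPKM in *nlrc3* MO samples, against 71.0, 68.7 and 67.8 FPKM in control MO samples. With 184.3 ± 2.07 FPKM in *nlrc3* MO and 69.1 ± 1.69 FPKM in control MO (SD, n = 3 each), it showed the widest gap of the set, 2.66-fold. The log2 fold change was 1.41 with a 95% interval of 1.35 to 1.48 (limma, adjusted p = 1.94e-08). It was above the log2 fold change of 98.2% of tested genes.

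The order of levels was the same in both groups: *slc4a1a*, *cahz*, *sptb*, *epb41b*, *rhag* and *ank1a*. Within each group no neighbours in this order overlapped. The closest neighbours were *sptb* and *epb41b*, at 276.2 ± 7.09 and 241.8 ± 1.16 FPKM in *nlrc3* MO samples and at 134.3 ± 2.25 and 117.6 ± 2.0 FPKM in control MO samples (SD, n = 3 each). Together the 6 genes took 0.454% to 0.461% of all FPKM in *nlrc3* MO samples and 0.248% to 0.251% in control MO samples. When the globins were left out of the total, these shares were 0.694% to 0.707% in *nlrc3* MO and 0.294% to 0.298% in control MO.

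The sums of FPKM differed between the groups, so the size of each change depended on how the samples were scaled. When every sample was brought to the same total (TPM), the median change over all tested genes moved by -0.38 on the log2 scale. All 6 genes still passed the test in limma, with Benjamini-Hochberg adjusted p-values between 1.26e-08 and 9.29e-07, but their log2 fold changes were 0.91 for *slc4a1a* and *cahz*, 0.66 for *sptb* and *epb41b*, 1.03 for *ank1a* and 1.04 for *rhag*. Only *ank1a* and *rhag* then stayed above 2-fold. The share of all tested genes above 2-fold as TPM is not given here. Under median-of-ratios scaling, which moved the median of all genes by 0.20, the log2 fold changes of the 6 genes lay between 1.25 and 1.62. Scaling to the total without globins left them between 1.03 and 1.40. Each of these scalings multiplies all FPKM of a sample by 1 factor. Changes counted from the median of all tested genes can therefore hardly differ between scalings, and their likeness is no test. Counted so, the change of *slc4a1a* was 1.51 as deposited, 1.51 as TPM and 1.52 under median-of-ratios scaling. That of *sptb* was 1.26, 1.26 and 1.27 in the same order, and that of *rhag* was 1.64, 1.63 and 1.64. The split of all tested genes did depend on the scaling. It was 3062 higher and 6496 lower as deposited, 1378 higher and 9697 lower as TPM, and 4604 higher and 4973 lower under median-of-ratios scaling.

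**Figure D2:**
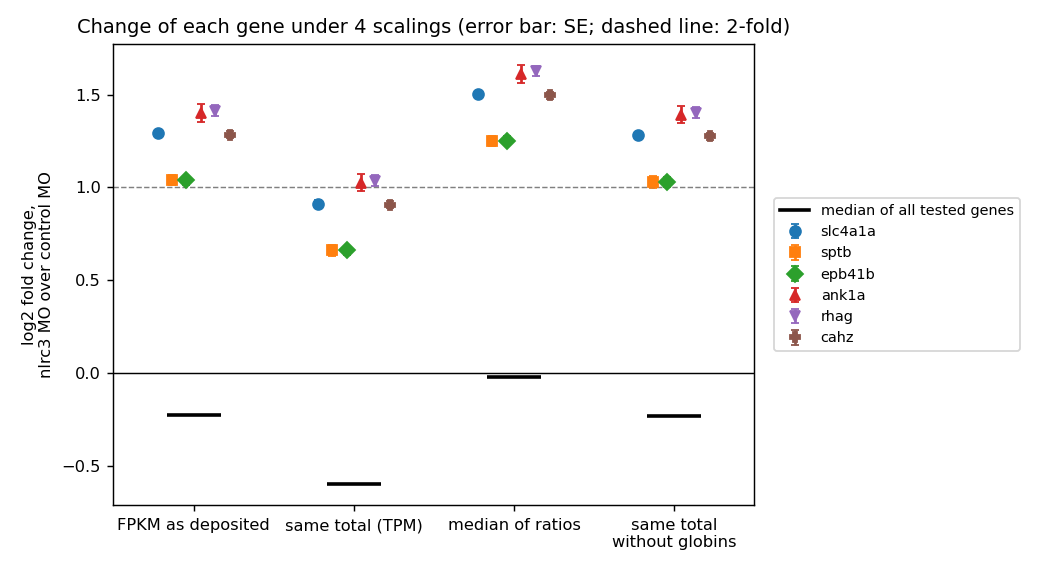
Log2 fold change (vertical axis, *nlrc3* MO over control MO) of the 6 genes under 4 scalings of the samples (horizontal axis), with SE as error bars; black bars mark the median of all tested genes and the dashed line marks 2-fold. All 6 genes lie above 0 under each scaling, and with the same total (TPM) only *ank1a* and *rhag* lie above the 2-fold line.

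Ratios between the genes of 1 sample do not depend on the scaling. The 6 genes form 15 pairs, and in 12 of them the ratio did not overlap between the groups. How often this holds for pairs of other genes was not computed. Samples of a group lay close together, with coefficients of variation of 0.32% to 3.0% for the 6 genes. Small differences in change then suffice to part the ratios, so the count cannot be called particular to this set. The exact permutation test of 3 against 3 samples cannot give a p below 0.1, and each of these 12 pairs had p = 0.1 (two-sided, 0.125 after adjustment over the 15 pairs). The differences were small beside the change of the genes themselves. The *sptb* to *rhag* ratio was 1.47, 1.5 and 1.52 in *nlrc3* MO samples, against 1.91, 1.92 and 2.01 in control MO samples, a log2 difference of -0.37 and the largest of the 15. The *slc4a1a* to *sptb* ratio was 5.59, 5.31 and 5.33 in *nlrc3* MO samples, against 4.51, 4.68 and 4.44 in control MO samples, a log2 difference of 0.25. Per unit of beta spectrin transcript there was thus 1.19-fold more Band 3 transcript in *nlrc3* MO samples.

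The remaining 3 pairs overlapped between the groups. The *slc4a1a* to *cahz* ratio was 1.67, 1.66 and 1.64 in *nlrc3* MO samples and 1.66, 1.66 and 1.64 in control MO samples. The *sptb* to *epb41b* ratio was 1.11, 1.17 and 1.15 in *nlrc3* MO samples and 1.16, 1.1 and 1.17 in control MO samples. The *ank1a* to *rhag* ratio was 0.193, 0.178 and 0.187 in *nlrc3* MO samples and 0.180, 0.193 and 0.186 in control MO samples. The log2 differences of these pairs were 0.0059, -0.00038 and -0.0071. The 6 genes can therefore be read as 3 pairs by size of change: *sptb* with *epb41b*, *slc4a1a* with *cahz*, and *ank1a* with *rhag*. This grouping was seen in the values and was not tested.

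The erythroid markers moved in the same direction as the 6 genes. Of 16 markers measured, 16 passed the test as higher in *nlrc3* MO, 12 of them by more than 2-fold in FPKM as deposited. The count over 2-fold depends on the scaling, as it did for the 6 genes. Log2 fold changes of the markers had a median of 1.35 and a range of 0.46 to 1.63. The most abundant were the embryonic globins *hbbe3*, at 55028 FPKM in *nlrc3* MO and 20261 FPKM in control MO, and *hbae3*, at 50035 FPKM in *nlrc3* MO and 16190 FPKM in control MO. The log2 fold changes of all 6 membrane genes lay inside this range. The lowest changes among the markers were those of *slc25a37*, the mitochondrial iron importer (0.46), and *tfr1a*, the transferrin receptor (0.63). As TPM *slc25a37* no longer passed (log2 fold change 0.086, adjusted p = 0.0765 in limma).

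**Figure D3:**
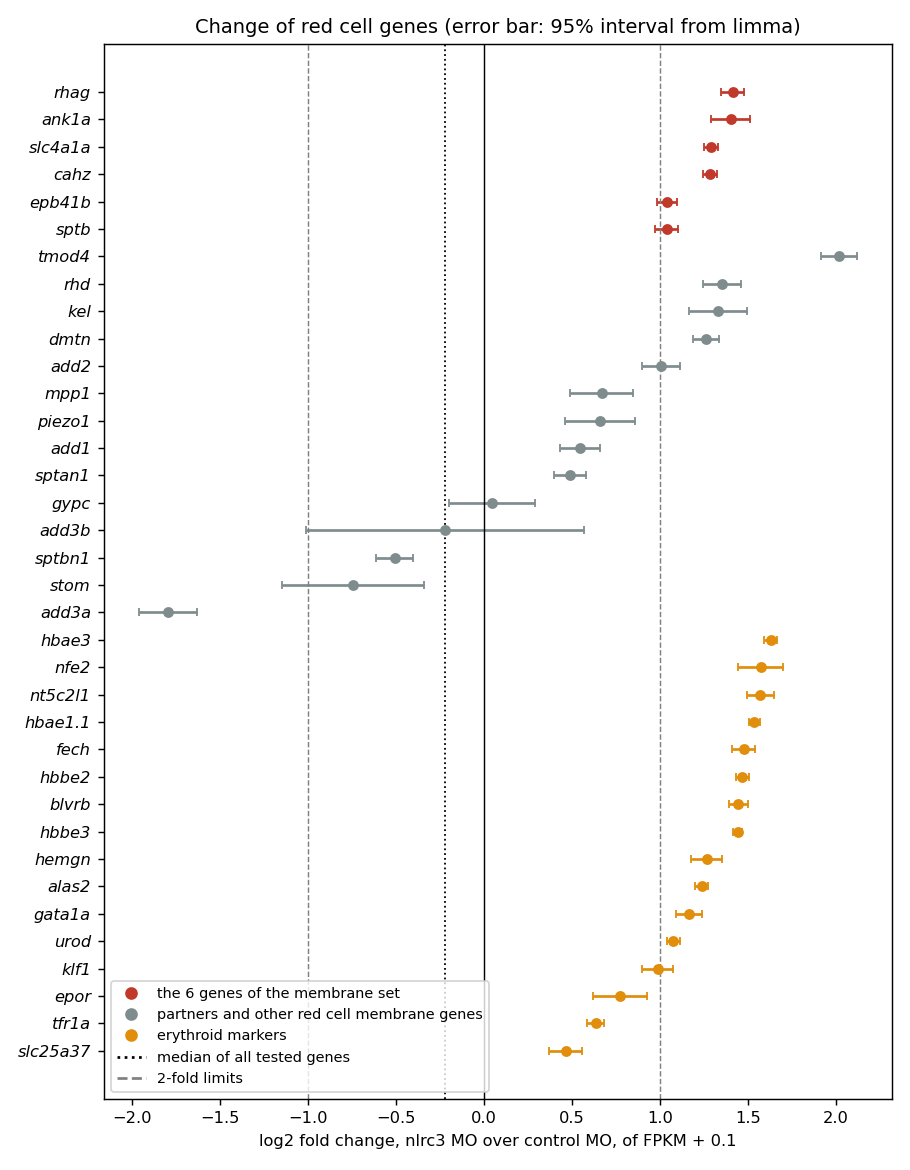
Log2 fold change (horizontal axis, *nlrc3* MO over control MO, of FPKM + 0.1) with 95% intervals for the 6 genes (red), for partners and other red cell membrane genes (grey) and for the erythroid markers (orange); the dotted line is the median of all tested genes and the dashed lines mark 2-fold. The 6 genes lie at 1.04 to 1.41 and the erythroid markers at 0.46 to 1.63, while the grey genes run from -1.79 for *add3a* to 2.02 for *tmod4*.

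Each gene was then set against the erythroid transcripts of its own sample. The 12 erythroid markers other than globins summed to 5293 to 5350 FPKM in *nlrc3* MO samples and to 2431 to 2440 FPKM in control MO samples. Most of this sum came from *urod*, at 2110 FPKM in *nlrc3* MO and 1001 FPKM in control MO, and *alas2*, at 1200 and 509 FPKM. Their log2 fold changes were 1.08 and 1.24, below the median of 1.35 of the 16 erythroid markers. The ratios to this sum therefore mostly follow these 2 genes. Relative to this sum, *rhag* and *ank1a* were higher in *nlrc3* MO by 0.29 and 0.28 on the log2 scale, and *slc4a1a* and *cahz* each by 0.16. Relative to the same sum, *sptb* and *epb41b* were both lower, with log2 differences of -0.087 and -0.086. In all 6 cases the groups did not overlap (exact permutation test, p = 0.1, the smallest possible). How often other genes do so relative to this sum was not computed. The sum of the 6 genes relative to these markers was 1.09-fold higher in *nlrc3* MO. The 14 globin genes summed to 235910 to 237470 FPKM in *nlrc3* MO samples and to 81828 to 82254 FPKM in control MO samples. Relative to the globins all 6 genes were lower in *nlrc3* MO, with log2 differences of -0.49 for *sptb* and *epb41b*, -0.24 for *slc4a1a* and *cahz*, -0.12 for *ank1a* and -0.11 for *rhag*. Whether *slc4a1a*, *cahz*, *ank1a* and *rhag* were high or low per erythroid transcript thus depended on which erythroid transcripts were taken.

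**Figure D4:**
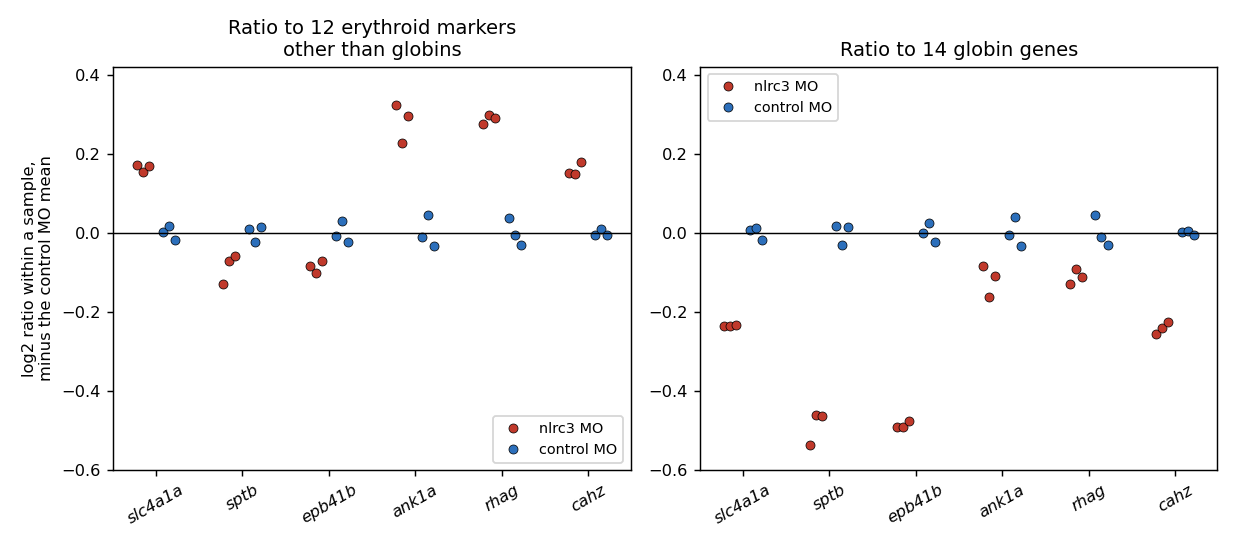
Log2 ratio of each gene to the sum of 12 erythroid markers other than globins (left) and to the sum of 14 globin genes (right) in each sample, minus the control MO mean; red points are *nlrc3* MO samples and blue points are control MO samples. On the left *slc4a1a*, *ank1a*, *rhag* and *cahz* lie above the control MO samples and *sptb* and *epb41b* below, and on the right all 6 genes lie below.

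Relatives of the 6 genes and other red cell membrane genes were counted without the 6 genes themselves. Of 32 such genes tested, 11 passed as higher and 13 as lower in *nlrc3* MO, and the median log2 fold change was -0.27, near the -0.22 of all tested genes. As TPM, 10 of the 32 passed as higher and 17 as lower, and under median-of-ratios scaling 14 as higher and 11 as lower. The share that each gene held of the summed FPKM of its family was computed after the values had been seen and was not tested.

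Among the Slc4 transporters, 2 of 5 tested genes passed as higher and 2 as lower. *slc4a4b*, a sodium bicarbonate cotransporter, was at 5.48 FPKM in *nlrc3* MO and 2.46 FPKM in control MO (log2 fold change 1.12, adjusted p = 4.99e-05 in limma). The shift of -0.38 as TPM brings this change under 2-fold. The anion exchangers of the *slc4a2* type differed from each other, with a log2 fold change of 0.52 for *slc4a2b* (adjusted p = 0.00154) and -0.33 for *slc4a2a* (adjusted p = 0.0143 in limma). The call of *slc4a2b* was lost as TPM (adjusted p = 0.183), and that of *slc4a2a* under median-of-ratios scaling (adjusted p = 0.287) and without control MO replicate 1 (adjusted p = 0.0501). *slc4a7*, another bicarbonate cotransporter, was at 3.82 FPKM in *nlrc3* MO and 4.75 FPKM in control MO and did not pass (adjusted p = 0.088), but it passed as lower as TPM (adjusted p = 0.00327) and without *nlrc3* MO replicate 3 (adjusted p = 0.00966). All of these were far below *slc4a1a*, which held 98.5% to 98.6% of the family's FPKM in *nlrc3* MO and 96.8% to 97.0% in control MO.

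Spectrins outside the red cell set moved in both directions. *sptan1*, an alpha spectrin of many tissues, was at 102.7 FPKM in *nlrc3* MO and 73.2 FPKM in control MO (log2 fold change 0.49, adjusted p = 2.44e-05 in limma), with a log2 fold change of 0.11 as TPM (adjusted p = 0.0346). *sptbn1*, a beta spectrin of many tissues, was lower, at 26.7 FPKM in *nlrc3* MO and 38.0 FPKM in control MO (log2 fold change -0.51, adjusted p = 4.22e-05 in limma).

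In the protein 4.1 family, 0 of 5 tested relatives of *epb41b* passed as higher and 4 as lower. *epb41l5* had a log2 fold change of -0.74 (adjusted p = 0.00271 in limma) and *epb41l4a* of -0.51 (adjusted p = 0.00336), both at under 4 FPKM in each group. *epb41l3b* was at 2.71 FPKM in *nlrc3* MO and 2.27 FPKM in control MO and did not pass (adjusted p = 0.149), with a log2 fold change of -0.12 as TPM and 0.45 under median-of-ratios scaling, where it passed (adjusted p = 0.0227). The paralog *epb41a* was at 0.14 FPKM in *nlrc3* MO and 1.15 FPKM in control MO (log2 fold change -2.46, adjusted p = 5.67e-04 in limma). Only control MO samples of *epb41a* reached the 0.5 FPKM needed for testing, so it could come out only as lower. *epb41b* held 96.7% to 96.8% of the family's FPKM in *nlrc3* MO and 90.3% to 90.8% in control MO.

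Other ankyrins were at under 1 FPKM on average in both groups. Of the 2 rows tested besides *ank1a*, *ank2b* was at 0.28 FPKM in *nlrc3* MO and 0.61 FPKM in control MO (log2 fold change -0.89, adjusted p = 0.0257 in limma). Only its control MO samples reached the 0.5 FPKM needed for testing, so it could come out only as lower. Its call was lost under median-of-ratios scaling (adjusted p = 0.0561), without *nlrc3* MO replicate 3 (adjusted p = 0.0584) and without control MO replicate 1 (adjusted p = 0.0876). The tested row of *ank3b* did not pass (adjusted p = 0.0563). The other row of *ank3b*, at 0.48 FPKM in *nlrc3* MO and 0.20 FPKM in control MO on average, was below the limit for testing. *ank1a* held 95.1% to 95.6% of ankyrin FPKM in *nlrc3* MO and 82.4% to 88.1% in control MO.

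In the Rh family a relative of *rhag* rose with it. *rhd*, an Rh polypeptide whose human counterparts assemble with RHAG, was at 87.8 FPKM in *nlrc3* MO and 34.3 FPKM in control MO (log2 fold change 1.35, adjusted p = 2.81e-07 in limma). The shift of -0.38 as TPM brings this change under 2-fold. *rhd* was the only relative of *rhag* that passed the limit for testing. The share of *rhag* in the family was 66.4%, 69.2% and 67.2% in *nlrc3* MO samples and 67.2%, 65.5% and 66.7% in control MO samples, and these ranges overlapped.

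Among the carbonic anhydrases, 0 of 5 tested relatives of *cahz* passed as higher and 2 as lower. Under median-of-ratios scaling 3 of 6 carbonic anhydrases passed as higher, with *cahz* among them, and 2 as lower. *ca6*, a secreted form, was at 4.76 FPKM in *nlrc3* MO and 23.0 FPKM in control MO (log2 fold change -2.25, adjusted p = 9.15e-07 in limma). *ca2*, a cytosolic form, had a log2 fold change of -0.76 (adjusted p = 0.00517). The mitochondrial form *ca5a* was at 7.09 FPKM in *nlrc3* MO and 6.61 FPKM in control MO and did not pass (adjusted p = 0.438). Its log2 fold change was -0.27 as TPM and 0.31 under median-of-ratios scaling, where it passed as higher (adjusted p = 0.0391 in limma). *cahz* held 98.1% to 98.3% of carbonic anhydrase FPKM in *nlrc3* MO and 91.1% to 91.5% in control MO.

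Of 11 further genes of the red cell membrane and its actin junctions, 7 passed as higher and 2 as lower, and the median of their log2 fold changes was 0.66. *tmod4*, a tropomodulin that caps actin filaments, was at 61.4 ± 1.76 FPKM in *nlrc3* MO and 15.1 ± 0.442 FPKM in control MO (SD, n = 3 each). On the log2 scale it rose by 2.02 (limma, adjusted p = 2.49e-08), more than each of the 6 genes did. *kel*, the Kell blood group protein, had a log2 fold change of 1.33 (adjusted p = 2.6e-06 in limma). That of *dmtn*, the actin bundler dematin, was 1.26 (adjusted p = 5.85e-08 in limma). *add2*, an adducin of the spectrin-actin junction, rose by 1.01 (adjusted p = 1.24e-06 in limma). As TPM the log2 fold changes of *dmtn* and *add2* were 0.89 and 0.63, which is under 2-fold. The shift of -0.38 as TPM brings *kel* under 2-fold too. Without control MO replicate 3 the log2 fold change of *add2* was 0.97. Smaller rises were measured for *mpp1*, the scaffold p55 (0.67), for the mechanosensitive channel *piezo1* (0.66) and for *add1* (0.54), which were 0.30, 0.29 and 0.17 as TPM.

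The adducins did not move together. *add2* was at 44.0 FPKM in *nlrc3* MO and 21.9 FPKM in control MO and *add1* at 49.7 FPKM in *nlrc3* MO and 34.0 FPKM in control MO. *add3a*, in contrast, was at 3.5 FPKM in *nlrc3* MO and 12.4 FPKM in control MO (log2 fold change -1.79, adjusted p = 5.12e-07 in limma), and *add3b* did not pass (adjusted p = 0.593). *stom*, the integral membrane protein stomatin, was also lower (log2 fold change -0.75, adjusted p = 0.00661). *gypc*, a glycophorin that binds protein 4.1 in human red cells, was at 7.39 FPKM in *nlrc3* MO and 7.15 FPKM in control MO and did not pass (adjusted p = 0.718), with a log2 fold change of -0.33 as TPM (adjusted p = 0.0216 in limma).

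**Figure D5:**
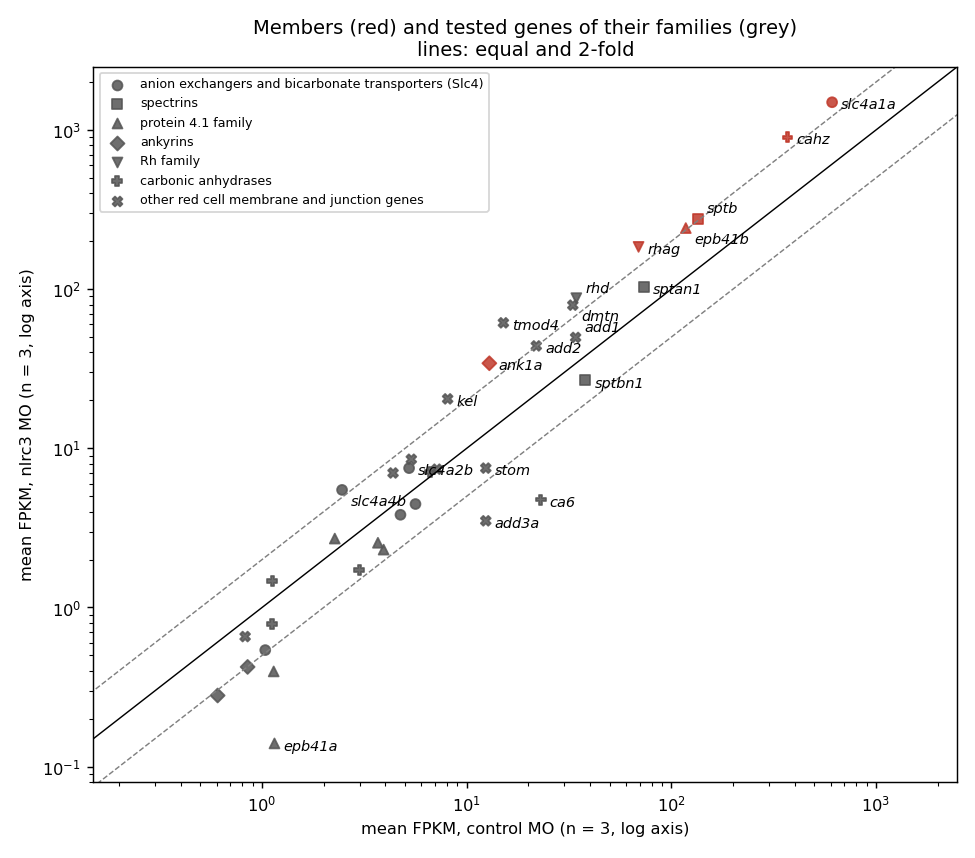
Mean FPKM in *nlrc3* MO (vertical, log axis) against mean FPKM in control MO (horizontal, log axis) for the 6 genes (red) and tested genes of their families and of the red cell membrane (grey), with lines at equal level and at 2-fold. The 6 genes lie along the upper 2-fold line or above it, with *slc4a1a* at the top, while *ca6*, *add3a* and *epb41a* lie below the lower line.

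For each of the 6 genes the genes with the nearest pattern were looked up among 2806 genes with a mean of at least 20 FPKM. Likeness was the root mean square difference of centred log2 values over the 6 samples, which mostly follows the difference between the 2 groups. The gene nearest to *slc4a1a* was *cahz*, and the gene nearest to *cahz* was *slc4a1a*, with a distance of 0.011. Next to *slc4a1a* came *adcy6a*, an adenylyl cyclase (0.023), and *tubb1*, a beta tubulin of the blood lineages (0.024). Next to *cahz* came *nmt1b*, an N-myristoyltransferase (0.018), and again *tubb1* (0.019).

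Nearest to *sptb* were *lmo2*, a transcriptional cofactor of blood and endothelium (0.018), *atp6v1ba*, a proton pump subunit (0.019), and *narf* (0.021). Nearest to *epb41b* were *slc38a5a*, an amino acid transporter (0.023), *ppox*, an enzyme of heme synthesis (0.024), and *lyz*, the lysozyme gene of myeloid cells (0.026). *rhag* had *txn*, a thioredoxin (0.016), *blvrb*, a biliverdin reductase (0.025), and the globin gene *hbbe3* (0.029) as neighbours. *ank1a* had *rhd* (0.032), *hbbe3* (0.038) and *txn* (0.039). The neighbours of the most changed pair thus included genes that they shared, *txn* and *hbbe3*.

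Markers of other cell types also differed between the groups. Of 7 myeloid markers, 6 passed as higher in *nlrc3* MO (median 1.23 on the log2 scale), and their sum was 1187 to 1213 FPKM in *nlrc3* MO samples and 523.8 to 528.7 FPKM in control MO samples. As TPM, 5 of the 7 passed as higher and 1 as lower, and under median-of-ratios scaling 7 as higher and 0 as lower. *lyz* alone was at 796.3 FPKM in *nlrc3* MO and 385.7 FPKM in control MO. Of 10 endothelial markers, 2 passed as higher and 7 as lower, and their sum was 429.3 to 430.7 FPKM in *nlrc3* MO samples and 677.5 to 689.5 FPKM in control MO samples. The 2 higher ones were *tek* (log2 fold change 0.27) and *etv2* (0.18), and as TPM both were lower (-0.10 and -0.20), so that 10 of 10 passed as lower. Under median-of-ratios scaling 3 of the 10 passed as higher and 6 as lower. *fli1a*, whose promoter drives the EGFP used for the sort, was at 90.6 FPKM in *nlrc3* MO and 204.6 FPKM in control MO (log2 fold change -1.17, adjusted p = 7.82e-08 in limma).

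Of 5 neural crest markers 4 passed as lower, and their sum was 5.55 to 6.64 FPKM in *nlrc3* MO samples and 315.3 to 321.4 FPKM in control MO samples. In control MO most of this sum was *twist1a*, at 233.4 FPKM on average, against 2.75 FPKM in *nlrc3* MO. Of 5 markers of stem and progenitor cells and thrombocytes, 1 passed as higher and 2 as lower (sums of 37.3 to 40.0 FPKM in *nlrc3* MO and 45.6 to 48.8 FPKM in control MO), and *runx1* was listed at 0 in 2 of the 3 *nlrc3* MO samples. Muscle markers summed to 108.9 to 115.1 FPKM in *nlrc3* MO and 122.0 to 124.4 FPKM in control MO, with 1 of 5 higher, *actc1b*, which was lower as TPM (-0.25), and 3 lower. Neural markers summed to 6.08 to 6.84 FPKM in *nlrc3* MO and 10.3 to 12.7 FPKM in control MO, with 0 of 4 higher and 3 lower. Epidermal markers summed to 67.7 to 71.7 FPKM in *nlrc3* MO and 60.7 to 66.0 FPKM in control MO, with 3 of 4 higher and 0 lower, whereas as TPM 0 passed as higher and 2 as lower, *krt4* (-0.26) among them. Under median-of-ratios scaling 3 of the 4 epidermal markers passed as higher and 0 as lower. The part of these other cell types in the values of the 6 genes was not tested.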

How the data were processed

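EGFP+ cells of Tg(*fli1a*:EGFP) zebrafish embryos were compared between *nlrc3* MO (3 samples) and control MO (3 samples), grouped by the labels. Per the methods of the study, the authors used Cutadapt for trimming and HISAT2 for alignment against Ensembl's zebrafish genome, and they assembled and quantified transcripts with StringTie and ballgown. The submitters' processing notes instead name CASAVA 1.8, Bowtie 0.12.2 and the mouse build mm8. The authors deposited FPKM per gene, rounded to 2 decimals. The column names do not spell out the groups and were matched to them through column headings in the study's source data. The authors' own columns of fold changes, p-values and q-values were not used. The labels give 28 hpf, and legends of the study an earlier time.

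FPKM values were transformed as log2(FPKM + 0.1), and the 15155 genes that reached 0.5 FPKM in 3 or more samples entered a fit with limma 3.58.1 (eBayes with trend) in R 4.3.3, two-sided, with Benjamini-Hochberg adjustment over all of them. A gene passed at an adjusted p under 0.05, and was counted as over 2-fold in addition where the fitted fold change exceeded 2 or was below 0.5. Fold changes on this scale understate changes of low genes. A gene that reached 0.5 FPKM in all samples of 1 group and in no sample of the other could come out only as higher in the first. Ratios within a sample were compared by two-sided exact permutation tests in SciPy 1.17.1. The fit was tested on simulated data. Read depth is unknown, because low FPKM values showed no whole-read steps, so precision rests on the spread between 3 samples.

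The 6 genes, the lists and the alternatives were chosen with earlier results of these data known. Named are the 6 genes, other list genes over 2-fold with at least 5 FPKM in the higher group, the 3 most abundant genes of each family list, the leading markers and the 3 nearest patterns. *epb41a*, *mpp1*, *piezo1*, *stom*, *gypc*, *add3b*, *kdrl*, *tek*, *etv2*, *slc25a37*, *tfr1a*, *urod* and *alas2* were named after their values were seen. Of the ankyrin, Rh and marker lists only some leading genes are named. Reads shared between paralogs, or between the 2 rows named *ank1a*, could not be examined in FPKM. Coordinates and sequences were not used here. Some genes of the lists are counted but not reported by name here.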

Additional observations from a re-analysis of the deposited data

How the results depend on the processing

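Results were recomputed with a pseudocount of 1 or 0.01, without the filter or with one of 1 FPKM, as TPM, under median-of-ratios scaling, under scaling without globins, with a replicate block, with eBayes without the trend, and without each sample in turn. All 6 genes stayed higher and past the test in limma under each of them. As TPM, 2 of the 6 genes stayed above 2-fold. Without a fold limit, 1378 of all tested genes passed as higher as TPM. Under median-of-ratios scaling 4604 passed as higher. Leaving out 1 sample gave log2 fold changes of 1.28 to 1.3 for *slc4a1a*, 1.03 to 1.06 for *sptb*, 1.03 to 1.05 for *epb41b*, 1.38 to 1.42 for *ank1a*, 1.40 to 1.43 for *rhag* and 1.28 to 1.29 for *cahz*. With all globin genes as the denominator in place of the other erythroid markers, the log2 differences changed sign for *slc4a1a* (-0.24), *ank1a* (-0.12), *rhag* (-0.11) and *cahz* (-0.24) and moved to -0.49 for *sptb* and -0.49 for *epb41b*. Among other genes the log2 fold change changed sign as TPM for *actc1b* (-0.25), *ca5a* (-0.27), *epb41l3b* (-0.12), *etv2* (-0.20), *gypc* (-0.33), *krt4* (-0.26) and *tek* (-0.10), and under median-of-ratios scaling for *myb* (0.0029). Leaving out 1 sample gave log2 fold changes of -0.037 to 0.11 for *gypc* and -0.45 to 0.11 for *add3b*. TPM and median-of-ratios scaling each multiply all FPKM of a sample by 1 factor. The samples share only a replicate number: same-numbered deviations correlated at 0.0041, 0.040 and -0.0034. With the replicate block 2933 genes passed as higher and 6309 as lower in limma, and all 6 genes passed, with Benjamini-Hochberg adjusted p-values of 6.86e-07 to 1.26e-05. Among the other named genes the block ended the calls of *ank2b* (adjusted p = 0.0581) and *krt4* (adjusted p = 0.073) and brought *krt5* past the test (adjusted p = 0.0494). Depth is unknown, so it sets no limit that can be given here.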
